A study of Mus musculus with 7 samples.

Results

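The genes described here are 10 genes of the blood vessel lining and of vessel growth, chosen by name: Vegfa, Kdr, Flt1, Tek, Tie1, Angpt1, Angpt2, Pecam1, Cdh5 and Eng. They are 10 of 55487 gene identifiers in the deposited count tables, and all 10 passed the filter on low counts, which kept 18779 genes. They were followed in RNA from whole ovaries of adult C57BL/6J mice, taken at postnatal day 60 in diestrus. The CNTR group (n = 3) came from dams given PBS, the carrier, late in pregnancy. The PAMH F3 group (n = 4) was the third generation descended from dams given anti-Müllerian hormone (AMH) at 0.12 mg per kg per day over late embryonic days, so that these mice were not themselves exposed in the uterus. The study's methods describe the CNTR mice as first-generation offspring and the PAMH F3 mice as bred within the exposed lineage, so that generation, lineage and ancestral AMH exposure cannot be told apart here. Each library was labelled as a separate sample, and the p-values measure the spread between these 7 libraries.

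Vascular endothelial growth factor A, the product of Vegfa, is a secreted signal that makes endothelial cells divide, move and form new capillaries. It acts through the receptor tyrosine kinases encoded by Kdr, which carries most of the growth signal, and Flt1, which binds the ligand tightly and can act as a decoy. Angiopoietin 1 (Angpt1) activates the receptor encoded by Tek and keeps vessels stable, angiopoietin 2 (Angpt2) can oppose it, and Tie1 is a co-receptor of Tek. Pecam1 and Cdh5 encode adhesion molecules of the junctions between endothelial cells, and Eng encodes endoglin, a co-receptor for ligands of the TGF-beta family. In the ovary, vessels regrow with every cycle around growing follicles and above all in the corpus luteum, which is densely vascularised.

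No gene among the 10 passed the threshold in the comparison of PAMH F3 with CNTR ovaries, an adjusted p of at most 0.05 in edgeR's quasi-likelihood test with 2 surrogate variables, which stand for variation among the libraries that the groups do not explain. Of all genes tested, 0.0% were called by that rule, while 1435 genes had an unadjusted p under 0.05. DESeq2 with the same surrogate variables called 101 genes, of which 0 were among the 10, with Pecam1 nearest at an adjusted p of 0.0930. In the edgeR fit with 2 surrogate variables 8 of the 10 genes had a log2 fold change below 0, against 48.3% of all genes. Their median log2 fold change was −0.13, against 0.00 over all genes tested. The largest difference was in Pecam1, at −0.44 on the log2 scale, and the smallest in Angpt2, at 0.03. Pecam1 alone had an unadjusted p under 0.05 in the lower direction, a result that 3.89% of all genes gave.

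Without surrogate variables 9 of 10 log2 fold changes were below 0 and their median was −0.07. Tie1 was then the gene with an unadjusted p under 0.05, in a direction and at a threshold that 2.84% of all genes met. Every one of the 10 genes had overlapping groups, while 2.4% of all genes had every PAMH F3 library below every CNTR library. In bulk RNA, fewer endothelial cells and less RNA per endothelial cell cannot be told apart.

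The promoters of 4 receptor genes are shown, Kdr and Tek because their transcripts followed each other from library to library below, Flt1 and Eng because they hold the motif marked. RefSeq promoter windows for GRCm38.p6, of 250 bases before and 50 bases after the start site, were matched for 6 of the 10 genes: Vegfa, Kdr, Flt1, Tek, Tie1 and Eng. Capitals mark GGAAG or its reverse complement CTTCC, the letters around the core that ETS factors, regulators of endothelial genes, are known to bind. The windows of 5 of the 6 genes, all but Tek, held these letters on either strand, in Kdr outside the bases printed, as did 71.4% of all 32851 promoters in the table. TATAAA was found in Flt1 alone, against 13.6% of all promoters, and ACGTG, a form of the core of hypoxia response elements, in 0 of 6, against 19.6%. Each line gives the 150 bases before the start site, 5′ to 3′ on the gene's strand.
Kdr (minus strand, chr5:75978456-75978605): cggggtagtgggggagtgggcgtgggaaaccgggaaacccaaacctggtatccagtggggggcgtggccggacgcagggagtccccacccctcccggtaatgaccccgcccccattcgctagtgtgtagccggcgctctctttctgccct
Flt1 (minus strand, chr5:147726012-147726161): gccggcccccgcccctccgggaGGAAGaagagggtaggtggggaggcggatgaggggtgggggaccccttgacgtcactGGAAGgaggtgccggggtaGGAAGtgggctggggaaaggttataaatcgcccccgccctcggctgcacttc
Tek (plus strand, chr4:94739139-94739288): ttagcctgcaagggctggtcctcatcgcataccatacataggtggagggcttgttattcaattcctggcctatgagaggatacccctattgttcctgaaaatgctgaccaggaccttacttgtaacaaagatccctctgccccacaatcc
Eng (plus strand, chr2:32646445-32646594): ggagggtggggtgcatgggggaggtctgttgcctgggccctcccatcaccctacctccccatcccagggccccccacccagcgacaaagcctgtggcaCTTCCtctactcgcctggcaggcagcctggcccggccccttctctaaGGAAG
The Tek window was the least GC-rich of the 6, at 52.0%, and the Flt1 window the richest, at 70.7%. A match to such short letters describes the sequence and says nothing about binding in the ovary.

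Vegfa, the ligand (chr17:46016993-46032369, minus strand, mm10), was the most abundant of the 10 transcripts and the one that varied least. Its level was 107, 124.5 and 124.5 CPM (read counts relative to library size, scaled by edgeR's TMM method) in CNTR replicates 1 to 3. In PAMH F3 replicates 1 to 4 it was 126, 106, 121 and 120 CPM. The groups overlapped almost completely, and CNTR ovaries averaged 119 ± 10.1 CPM (SD, n = 3) against 118 ± 8.57 CPM (SD, n = 4) among PAMH F3 ovaries. The log2 fold change was 0.03 (SE 0.08, adjusted p = 0.957, edgeR), with a 95% confidence interval from −0.15 to 0.21. The sign of so small a difference depended on the fit, at −0.01 without surrogate variables. The counts sum over all annotated isoforms of Vegfa.

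Kdr, the main signalling receptor for that ligand (chr5:75932827-75978458, minus strand), had one of the widest spreads among PAMH F3 ovaries. CNTR libraries held 72.2, 56.7 and 61.8 CPM. PAMH F3 libraries held 82.7, 58.3, 48.1 and 64.5 CPM, so that the highest and the lowest of all 7 values were both in this group. The mean of 63.6 ± 7.87 CPM (SD, n = 3) for CNTR was nearly equal to that of 63.4 ± 14.5 CPM (SD, n = 4) for PAMH F3. The log2 fold change was −0.12 (SE 0.14, adjusted p = 0.870, edgeR), with an interval from −0.45 to 0.20, and it was 0.00 without surrogate variables.

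Flt1, the decoy-like receptor (chr5:147561604-147726011, minus strand), was at 18.6, 19.9 and 20.8 CPM in CNTR. PAMH F3 libraries 1 to 4 were at 22.9, 17.2, 17.5 and 20.1 CPM and lay on both sides of the CNTR values. Its log2 fold change was −0.03 (SE 0.12, adjusted p = 0.978, edgeR), with an interval from −0.31 to 0.25. As with Kdr, PAMH F3 replicate 1 gave the highest value of all 7 libraries.

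**Figure D1:**
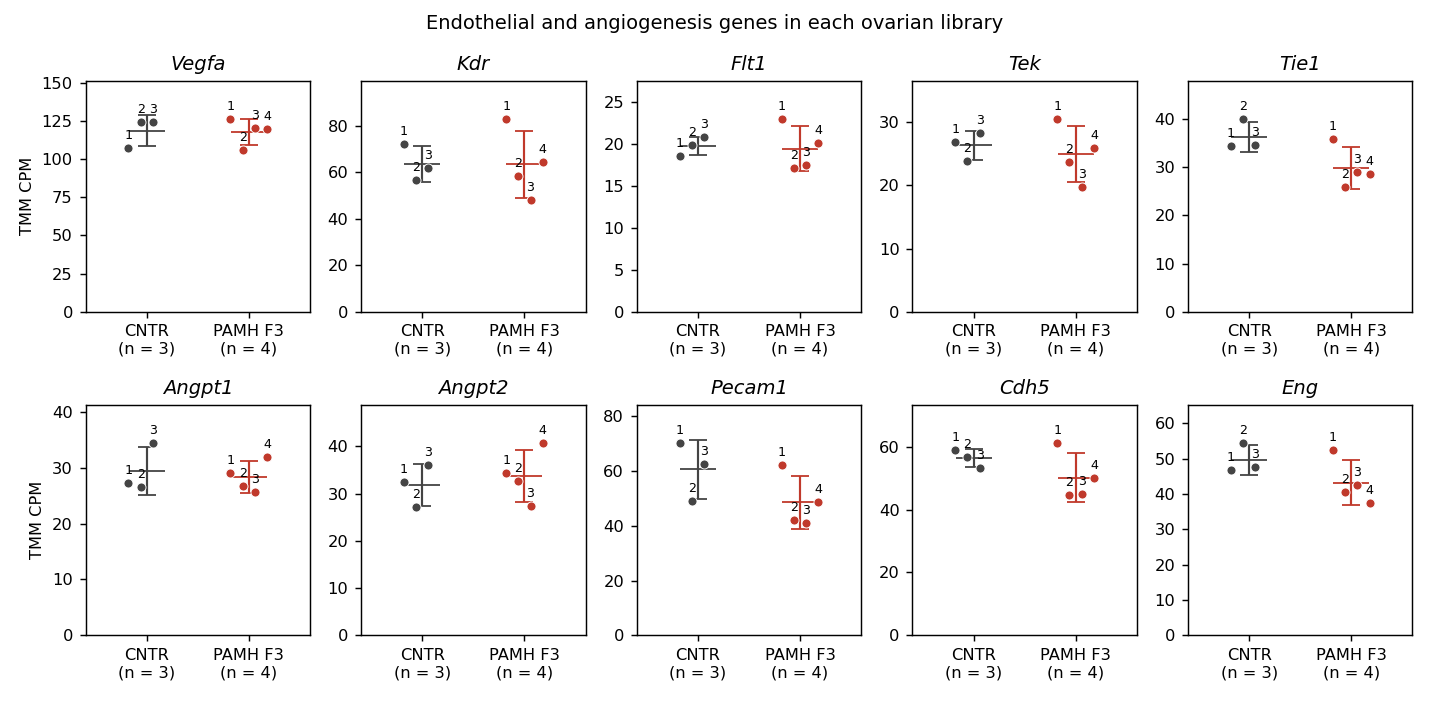
Level of each of the 10 genes in TMM-scaled CPM (vertical axis, starting at 0) in the 3 CNTR (grey) and 4 PAMH F3 (red) libraries. Points are libraries, numbered by replicate, and bars give the mean ± SD; the groups overlap for every gene, and PAMH F3 replicate 1 is the highest PAMH F3 library for 8 of the 10.

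Tek, the angiopoietin receptor (chr4:94739289-94874976, plus strand), followed the pattern of Kdr. Its CNTR values were 26.9, 23.8 and 28.3 CPM. Its PAMH F3 values were 30.4, 23.6, 19.8 and 25.9 CPM, again with the highest library in replicate 1 and the lowest in replicate 3. Its log2 fold change was −0.14 (SE 0.12, adjusted p = 0.813, edgeR), with an interval from −0.42 to 0.13.

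Tie1, the co-receptor (chr4:118471191-118490061, minus strand), had the lowest PAMH F3 to CNTR ratio of the receptor tyrosine kinases. CNTR libraries held 34.4, 40.0 and 34.7 CPM, and PAMH F3 libraries held 35.99, 25.9, 29.0 and 28.7 CPM. Replicates 2, 3 and 4 of PAMH F3 lay below all CNTR libraries and replicate 1 lay among them. The means were 36.4 ± 3.13 CPM (SD, n = 3) and 29.9 ± 4.30 CPM (SD, n = 4). The log2 fold change was −0.27 (SE 0.13, adjusted p = 0.704, edgeR), with an interval from −0.58 to 0.04. Without surrogate variables it was −0.28, with an unadjusted p of 0.0475 and an adjusted p of 0.997 (edgeR). An exact two-sided permutation test on log2 CPM over the 35 divisions of the 7 libraries gave p = 0.114, where the smallest p it can give is 0.0286.

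The angiopoietins, the ligands of Tek, were present at similar counts. Angpt1, the stabilising ligand (chr15:42424723-42676977, minus strand), was at 27.3, 26.6 and 34.4 CPM in CNTR and at 29.1, 26.7, 25.6 and 31.98 CPM in PAMH F3. The ligand's log2 fold change was −0.05 (SE 0.07, adjusted p = 0.897, edgeR). Angpt2, the context-dependent antagonist (chr8:18690263-18741562, minus strand), was at 32.5, 27.2 and 36.02 CPM in CNTR and at 34.3, 32.7, 27.4 and 40.7 CPM in PAMH F3. Between the groups it differed by 0.03 on the log2 fold scale (SE 0.08, adjusted p = 0.967, edgeR). For both ligands PAMH F3 replicate 4, not replicate 1, was the highest PAMH F3 library. Angpt2 lies within Mcph1 on the opposite strand, a gene with up to 1271 counts in a library. The strand setting of the counting was not given in the sources used here, so that a share of such reads in Angpt2 was not tested.

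Pecam1, the junction adhesion molecule also known as CD31 (chr11:106654217-106750628, minus strand), had the largest difference. Its level was 70.0, 48.8 and 62.6 CPM in CNTR replicates 1 to 3. In PAMH F3 replicates 1 to 4 it was 62.2, 42.2, 41.1 and 48.6 CPM. CNTR replicate 2 and PAMH F3 replicate 4 were nearly equal, and PAMH F3 replicate 1 lay at the level of CNTR replicate 3. The means were 60.5 ± 10.8 CPM (SD, n = 3) and 48.5 ± 9.69 CPM (SD, n = 4). The log2 fold change was −0.44 (SE 0.11) with an interval from −0.69 to −0.18, an unadjusted p of 0.0046 and an adjusted p of 0.511 (edgeR). Without surrogate variables it was −0.32, with an unadjusted p of 0.0899 in edgeR, and the exact two-sided permutation test gave p = 0.143. The difference rested in part on single libraries: it was −0.20 (adjusted p = 0.553, edgeR) without CNTR replicate 1 and −0.54 (adjusted p = 0.0419, edgeR) without PAMH F3 replicate 1. The latter call was lost without surrogate variables, where the adjusted p was 0.938.

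Cdh5, which encodes VE-cadherin (chr8:104101625-104144511, plus strand), was at 58.9, 56.7 and 53.2 CPM in CNTR. Its PAMH F3 values were 61.1, 44.7, 44.9 and 49.9 CPM, with replicate 1 above all CNTR libraries and the others below them. Its log2 fold change was −0.21 (SE 0.12, adjusted p = 0.731, edgeR). The exact two-sided permutation p was 0.229.

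Eng, the TGF-beta co-receptor (chr2:32646595-32682669, plus strand), was at 46.7, 54.3 and 47.5 CPM in CNTR. Its PAMH F3 values were 52.3, 40.5, 42.6 and 37.4 CPM, with replicate 1 inside the CNTR range and the others below it. The log2 fold change was −0.18 (SE 0.13, adjusted p = 0.799, edgeR), with an exact two-sided permutation p of 0.200. Eng overlaps Fpgs on the opposite strand, which had up to 1075 counts in a library, and the same limit on strand applies.

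**Figure D2:**
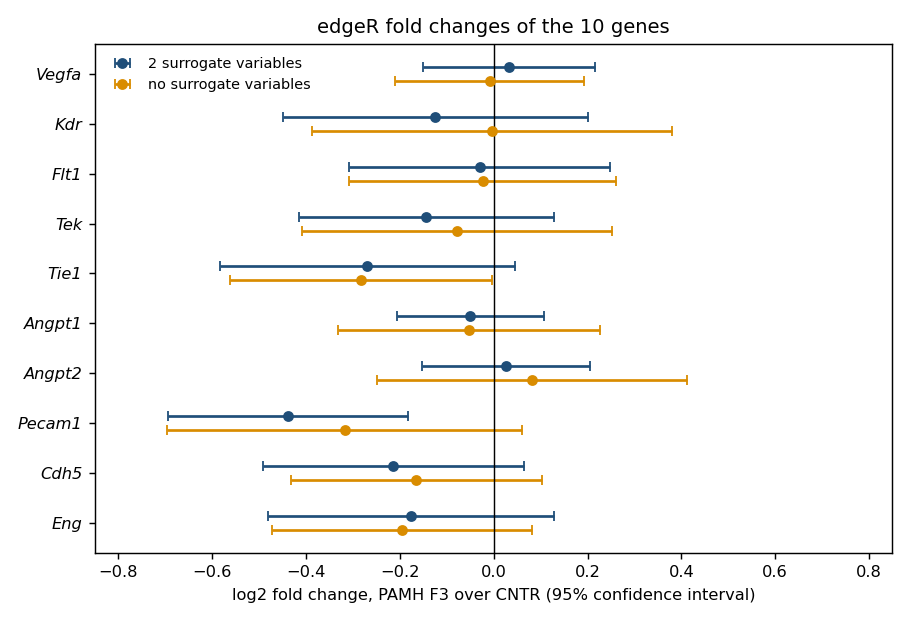
Log2 fold change of PAMH F3 over CNTR with its 95% confidence interval (horizontal axis) for each of the 10 genes, from edgeR with 2 surrogate variables (blue) and without any (orange). The Pecam1 interval, −0.69 to −0.18, is the 1 blue interval that leaves out 0, and the Tie1 interval is the 1 orange interval that does.

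The PAMH F3 libraries were not alike in these genes. Replicate 1 gave the highest PAMH F3 value for 8 of 10 genes and the lowest for 0, replicate 3 gave the lowest for 5 and replicate 2 for 4. Summed over the 10 genes, the level was 494, 478 and 504 CPM in CNTR and 537, 418, 417 and 467 CPM in PAMH F3. The highest and the lowest sums were thus both in PAMH F3 libraries. The mean z-score of Kdr, Tek, Tie1, Pecam1 and Cdh5 ran from 1.21 in PAMH F3 replicate 1 to −1.38 in PAMH F3 replicate 3, while CNTR libraries lay between 0.14 and 0.85. For Tie1, Pecam1, Cdh5 and Eng, PAMH F3 replicates 2 to 4 were below every CNTR library, as they were for 1006 of 18779 genes (5.36%). That count was taken after the values had been seen and is given as a description of these libraries.

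Leaving out PAMH F3 replicate 1, a library singled out after its values were seen, left 8 of 10 log2 fold changes below 0, and their median was −0.23. That library was the highest of PAMH F3 for 8 of the 10 genes, so that leaving it out lowered their PAMH F3 means by construction. The counts that follow describe this and are not a test of the 10 genes. Of the 10 genes, 6 then had an unadjusted p under 0.05 in the lower direction in edgeR with surrogate variables estimated again, as did 5.77% of all genes in that fit. Without surrogate variables it was 4 of the 10, against 3.32% of all genes, and the unadjusted p was 0.281 for Kdr and 0.198 for Tek. With surrogate variables 1 of the 10, Pecam1, had an adjusted p under 0.05, among 37 genes called in all. Tie1 was at −0.35 (adjusted p = 0.249), Cdh5 at −0.30 (adjusted p = 0.264), Eng at −0.26 (adjusted p = 0.220), Kdr at −0.23 (adjusted p = 0.423) and Tek at −0.22 (adjusted p = 0.441) in that edgeR fit. Vegfa was at 0.01 and Angpt2 at 0.03. Leaving out each library in turn, with or without surrogate variables, turned the sign of Vegfa, Kdr, Flt1, Tek, Angpt1 and Angpt2 in at least 1 fit, while Tie1, Pecam1, Cdh5 and Eng were below 0 in all of them.

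Summed marker transcripts of other cell types also varied between these libraries, while the cell makeup of the sequenced ovaries was not measured. By histology, the paper reports fewer corpora lutea in PAMH F3 than in control ovaries, counted in other, older mice. The summed level of 7 luteal markers, all detected, was 11400, 10930 and 13800 CPM in CNTR and 12700, 9096, 9220 and 12330 CPM in PAMH F3. Within PAMH F3 the libraries with the lower luteal sums, replicates 2 and 3, were also those with the lower sums of the 10 vascular genes. Most of each luteal sum came from Cyp11a1 and Hsd3b1, at CNTR means of 4591 and 4802 CPM. Not every luteal marker followed the sum, as Star was highest of the 7 libraries in PAMH F3 replicate 3, at 583 CPM. Ptgfr had the most negative log2 fold change of the list, −0.95 (SE 0.28, adjusted p = 0.540, edgeR). It was at 577, 515.5 and 883 CPM in CNTR and at 593, 302, 227 and 309 CPM in PAMH F3. The 6 oocyte markers summed to 275.5 CPM in PAMH F3 replicate 1, the lowest of the 7 libraries, and to between 360 and 447 CPM in the others. Adipocyte markers (5 genes) ranged from 247 to 769 CPM in CNTR and from 99.8 to 556 CPM in PAMH F3. The 5 oviduct epithelium markers summed to 3075 to 5446 and 2736 to 6499 CPM. Most of these sums was Ovgp1, at 2394 to 6172 CPM over the 7 libraries, and each of the 5 was detected in every library. In uniquely mapped reads the 5 erythroid genes summed to 15.6 to 50.04 CPM in CNTR and 17.3 to 36.6 CPM in PAMH F3. Reads that map to several globin genes are not among these counts, so that the sums are no measure of the blood in an ovary. Platelet genes (5 genes, of which 3 did not pass the filter) summed to at most 16.7 CPM in any library. Granulosa markers (7 genes) summed to 4536 to 6621 CPM in CNTR and 5008 to 6950 CPM in PAMH F3, theca and stroma markers (6 genes, of which 1 did not pass the filter) to 1381 to 1830 and 1172 to 1422 CPM, and leukocyte markers (7 genes) to 98.2 to 108 and 85.5 to 128 CPM. Few reads were counted for Insl3, a hormone of theca cells, with at most 5 in any library. Whether reads of Insl3 were lost to overlapping genes in the counting was not tested. Several of these lists were mostly below 0 in the edgeR comparison, as the endothelial markers were. Of all genes in that fit, 48.3% were below 0 and 3.89% were lower at an unadjusted p under 0.05. Luteal markers had 6 of 7 log2 fold changes below 0, 2 of them at an unadjusted p under 0.05, and a median of −0.20. Theca and stroma markers had 5 of 5 tested below 0, 1 at an unadjusted p under 0.05, and a median of −0.29. Adipocyte markers had 5 of 5 below 0 with a median of −0.61, and erythroid genes 5 of 5 with a median of −0.33, both with 0 at an unadjusted p under 0.05. Granulosa markers had 2 of 7 below 0 and a median of 0.09, which was −0.05 without surrogate variables. Oocyte markers had 5 of 6 below 0 with a median of −0.04, leukocyte markers 4 of 7 with −0.03 and oviduct epithelium markers 1 of 5 with 0.02. No gene of these lists passed the adjusted threshold in edgeR with all 7 libraries. The part of these markers in the vascular values was not tested.

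Levels of different genes were compared per kilobase of annotated exon. Vegfa was highest, at 27.6 CPM per kb over the 7 libraries, and Flt1 lowest, at 1.45 CPM per kb. Between them came Cdh5 (12.6 CPM per kb), Eng (11.3), Angpt2 (8.94), Pecam1 (8.62), Kdr (7.03), Tie1 (6.64), Angpt1 (5.54) and Tek (5.42). Vegfa and Flt1 were the genes whose 7 values lay clear of their neighbours in this order, and the other 8 overlapped with theirs. The order depended on the length chosen: per kilobase of the median transcript, Flt1 stood at 9.59 and Tek at 5.85 CPM per kb.

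Ratios within a library cancel its scaling and were formed for 8 pairs of the 10 genes. Angpt2 to Angpt1, the balance of the antagonist and the stabilising ligand, was 0.25, 0.03 and 0.07 on the log2 scale in CNTR and 0.24, 0.29, 0.10 and 0.35 in PAMH F3. The difference of 0.13 was the one with the smallest p, 0.171, in an exact two-sided permutation test, and its adjusted p over the 8 ratios was 0.838. The Vegfa to Kdr ratio varied widely within both groups, from 0.57 to 1.13 on the log2 scale in CNTR and from 0.61 to 1.33 in PAMH F3. Tie1 to Tek had the most negative difference, −0.20, with an exact permutation p of 0.314. The other ratios differed by between −0.01 and 0.15, and all 8 adjusted p-values, from the exact permutation tests, lay between 0.838 and 0.971.

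**Figure D3:**
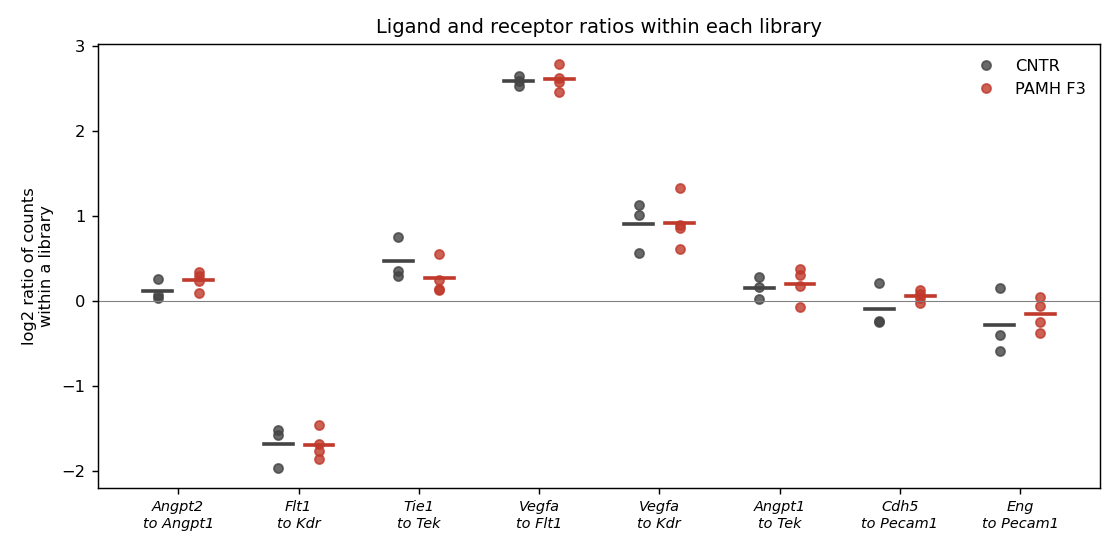
Log2 ratio of counts within a library (vertical axis) for 8 pairs of genes, with 1 point for each CNTR (grey) or PAMH F3 (red) library and bars at the group means. The groups overlap for all 8 ratios, and Angpt2 to Angpt1 has the smallest p, 0.171.

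The further endothelial markers, 24 genes that were not among the 10, were mostly below 0 as well. Of the 24, 21 had a log2 fold change below 0, against 48.3% of all genes. In edgeR 7 had an unadjusted p under 0.05 in the lower direction, against 3.89% of all genes, and 0 in the higher. An adjusted p of at most 0.05 was reached by 0 of the 24. Their median log2 fold change was −0.21. Without surrogate variables 22 were below 0, against 9229 of all 18779 genes. In that edgeR fit 7 had an unadjusted p under 0.05 in the lower direction, against 2.84% of all genes. For 4 of the 24 every PAMH F3 library lay below every CNTR library, against 2.4% of all genes. These 4, named after their values were seen, were Cldn5, Icam2, Ecscr and Rasip1. Cldn5, a tight junction claudin, was at 16.3, 27.3 and 20.1 CPM in CNTR and at 14.1, 14.9, 12.9 and 11.4 CPM in PAMH F3, a log2 fold change of −0.51 (SE 0.13, adjusted p = 0.511, edgeR). Icam2, an endothelial adhesion molecule, was at 9.22, 10.3 and 8.51 CPM and at 7.99, 6.90, 6.86 and 6.52 CPM, a log2 fold change of −0.39 (SE 0.13, adjusted p = 0.595, edgeR).

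The 4 most abundant of these markers had overlapping groups. Cd34, a surface sialomucin of endothelial and stromal cells, averaged 171 ± 28.0 CPM (SD, n = 3) for CNTR against 152 ± 17.5 CPM (SD, n = 4) for PAMH F3, a log2 fold change of −0.10 (SE 0.12). Esam, a junction molecule, was at −0.21 (SE 0.11), Egfl7, a secreted endothelial factor, at −0.09 (SE 0.06) and Clec14a, an endothelial lectin, at −0.11 (SE 0.09) on the log2 fold scale. The mean log2 CPM of the 24 markers was 4.22, 4.42 and 4.28 in CNTR and 4.18, 4.05, 4.06 and 3.96 in PAMH F3. In that measure every PAMH F3 library was below every CNTR library. The summed level of the same 24 markers overlapped, at 617, 697 and 682 CPM in CNTR and 630, 594, 560 and 535.5 CPM in PAMH F3. PAMH F3 replicate 1 was the highest of its group in both measures. Leaving that library out, a choice made after its values were seen, lowered the PAMH F3 mean of both by construction. In that edgeR fit 13 of the 24 had an unadjusted p under 0.05 in the lower direction, against 5.77% of all genes. An adjusted p of at most 0.05 was reached by 0 of them. Without surrogate variables it was 8 of the 24, against 3.32% of all genes.

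Measured against that mean, a choice made after the data had been seen, the differences of all 10 genes moved upward by the same amount. That shift was fixed by the marker mean, 4.31 in CNTR and 4.06 in PAMH F3, and is not a result about the 10 genes. The differences then ran from −0.07 for Pecam1 and −0.04 for Tie1 through 0.04 for Eng to 0.24 for Vegfa and 0.32 for Angpt2 on the log2 scale. The groups overlapped for all 10. The SD of Eng over the 7 libraries was 0.19 in log2 CPM and 0.09 relative to the marker mean, and that of Tie1 was 0.22 and 0.11. For Vegfa it was larger relative to the marker mean, at 0.16 against 0.11. It was also larger for Kdr (0.28 against 0.25), Flt1 (0.18 against 0.15) and Tek (0.22 against 0.20). The same held for Angpt1 (0.23 against 0.16) and Angpt2 (0.31 against 0.21). For Pecam1 (0.27 against 0.30) and Cdh5 (0.15 against 0.18) it was smaller.

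**Figure D4:**
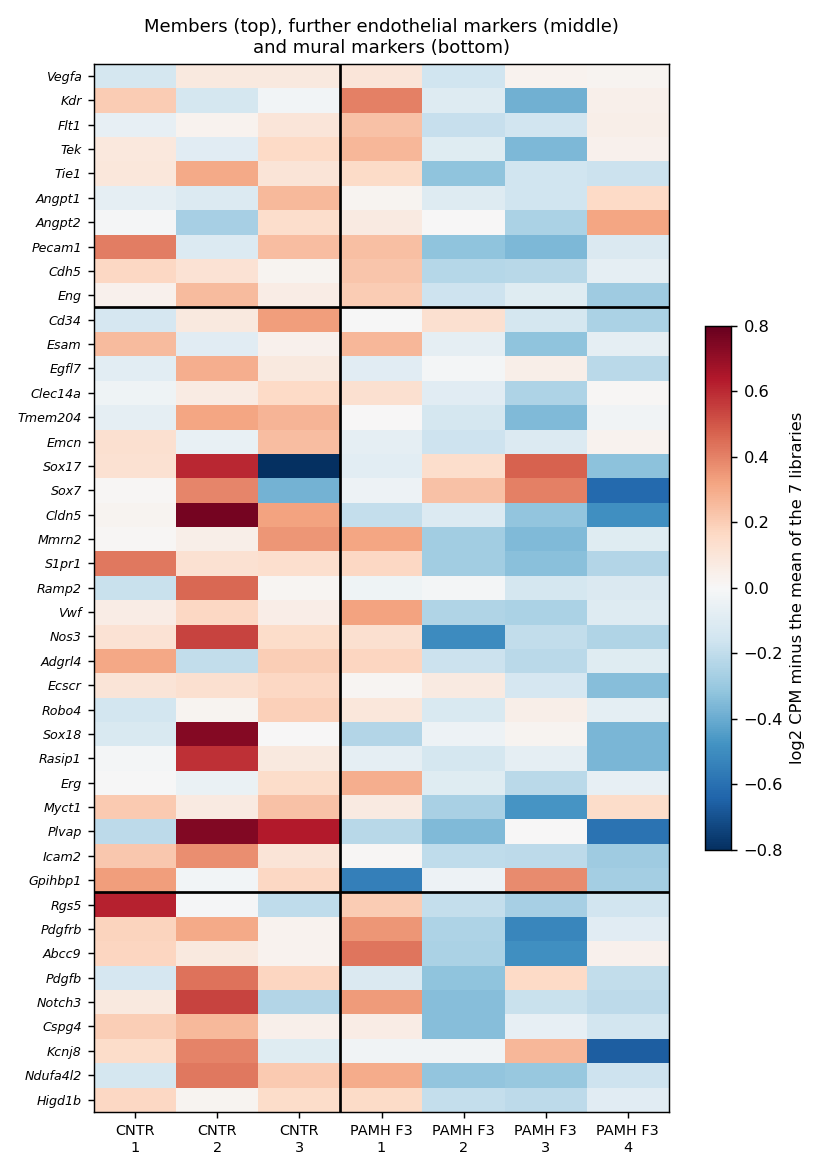
Log2 CPM of each gene minus its mean over the 7 libraries, as colour from blue below to red above. Rows are the 10 genes, 24 further endothelial markers and 9 genes of the mural list, and columns are libraries. Blue is the more frequent colour in PAMH F3 replicates 2 to 4, while PAMH F3 replicate 1 is red for most of the 10 genes.

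Pericytes and vascular smooth muscle cells wrap the endothelial tube. All 9 genes of the mural list had a log2 fold change below 0, against 48.3% of all genes. The median was −0.22. The list includes Pdgfb, a ligand for mural cells rather than a marker of them, at −0.15 (SE 0.12). Of the 9, 0 had an adjusted p of at most 0.05 and 1 an unadjusted p under 0.05, against 3.89% of all genes in the lower direction. The 1 was Rgs5, a regulator of G-protein signalling in pericytes, at −0.40 (SE 0.10, adjusted p = 0.511, edgeR), with CNTR replicate 1 highest at 130 CPM and the 6 other libraries between 70.6 and 97.4 CPM. It rested on that library, at 0.01 (adjusted p = 0.980, edgeR) without CNTR replicate 1, and without surrogate variables it was −0.27 with an unadjusted p of 0.196 in edgeR. Pdgfrb, the PDGF receptor of mural cells, was at −0.32 (SE 0.20) and Abcc9, a potassium channel subunit, at −0.22 (SE 0.19). Both had their highest value of the 7 libraries in PAMH F3 replicate 1, at 98.6 and 47.1 CPM.

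Lymphatic endothelial markers (6 genes) had a median of −0.05, with 4 below 0 and 0 at an unadjusted p under 0.05. Pdpn, podoplanin, was at −0.07 (SE 0.09) and Ccl21a, a chemokine, at −0.07 (SE 0.13).

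Partners of the VEGF, angiopoietin and endoglin pathways (21 genes) had a median of −0.13, with 17 below 0, against 48.3% of all genes. In the lower direction 3 had an unadjusted p under 0.05, against 731 of all 18779 genes. In the higher direction 1 had it, against 704 of all genes, and 0 passed the adjusted threshold. Bmpr2, the type II BMP receptor that acts with endoglin, was the 1 that was higher, at 482, 435 and 758 CPM in CNTR and 585, 703, 609 and 770 CPM in PAMH F3, a log2 fold change of 0.31 (SE 0.12, adjusted p = 0.629, edgeR). The 3 lower genes were Id1 and Id3, transcriptional targets of BMP signals, and Apln, the ligand apelin. Id3 was at 55.5, 135 and 96.1 CPM in CNTR and at 62.3, 65.8, 80.3 and 55.8 CPM in PAMH F3, a log2 fold change of −0.19 (SE 0.08, adjusted p = 0.651, edgeR). That value depended on the fit and on 1 library: it was −0.53 without surrogate variables and −0.78 (adjusted p = 0.0349, edgeR) without CNTR replicate 1, a call that was lost without surrogate variables (adjusted p = 0.546, edgeR). Tgfbr2, the type II TGF-beta receptor, was at −0.13 (SE 0.11) and Nrp2, a VEGF co-receptor, at −0.02 (SE 0.13), a sign that turned without surrogate variables.

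Hypoxia is a main inducer of Vegfa, and the 14 hypoxia response genes had a median of −0.01, with 8 below 0 and 6 above. In the lower direction 1 had an unadjusted p under 0.05, against 3.89% of all genes. Hif1a, the oxygen-regulated transcription factor subunit, was at 0.12 (SE 0.07), Epas1, its endothelial relative, at −0.02 (SE 0.07) and Arnt, their common partner, at 0.09 (SE 0.07). The 1 gene was Adm, the vasodilator adrenomedullin, at −0.69 (SE 0.25, adjusted p = 0.599, edgeR).

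Among 9 inhibitors of angiogenesis, 5 log2 fold changes were below 0 and 4 above, with a median of −0.21. At an unadjusted p under 0.05, 1 was lower and 2 were higher, against 731 and 704 of all 18779 genes. The adjusted threshold was passed by 0 of the 9. Thbs1, which encodes thrombospondin 1, was at 443, 558 and 734 CPM in CNTR and 803, 716, 701 and 933 CPM in PAMH F3. On the log2 fold scale it differed by 0.54 (SE 0.07, unadjusted p = 6.1e-05, adjusted p = 0.345, edgeR), and CNTR replicate 3 lay above PAMH F3 replicates 2 and 3. DESeq2 with the same surrogate variables called it, with an adjusted p of 2.8e-10, while edgeR without surrogate variables gave an unadjusted p of 0.0285 and an adjusted p of 0.997. The other higher gene was Thbs2, a relative of Thbs1, at 0.30 (SE 0.12, adjusted p = 0.641, edgeR). Sparc, a matrix protein, was at −0.21 (SE 0.15). The 1 lower gene was Sema3f, a secreted semaphorin that binds Nrp2, at −0.36 (SE 0.11, adjusted p = 0.540, edgeR).

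**Figure D5:**
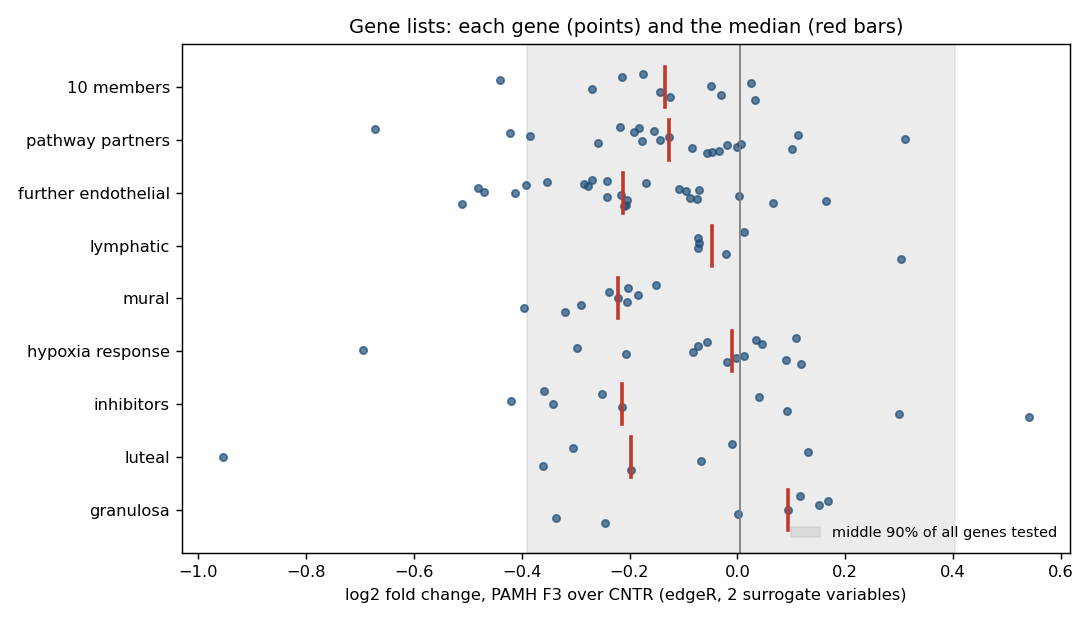
Log2 fold change of PAMH F3 over CNTR (horizontal axis, edgeR with 2 surrogate variables) for each tested gene (points) of 9 gene lists, with the list median in red, the median of all genes as a grey line and the middle 90% of all genes shaded. The medians of the further endothelial (−0.21), mural (−0.22), inhibitor (−0.21) and luteal (−0.20) lists lie below that of the 10 genes (−0.13).

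The genes whose pattern over the 7 libraries was most like that of Kdr, Tek, Tie1, Pecam1 and Cdh5 together were S1pr3 (Pearson r = 0.973), Timp3 (0.971), Timp2 (0.969), Kalrn (0.969) and Rasgrp3 (0.969). They are given as a description: 126 of 18758 genes had an r above 0.9 over these 7 points, which share library, depth and tissue makeup. Of the remaining members, Flt1 had an r of 0.79 and Eng of 0.64 with that pattern, against 0.39 for Angpt1, 0.31 for Angpt2 and 0.25 for Vegfa. Over the 7 libraries, the genes most like Vegfa were D7Bwg0826e (r = 0.974), Gm14486 (0.966) and Lonp1 (0.965), and the first of these did not exceed 0.540 CPM. Those most like Angpt2 were Cdk6 (r = 0.997), Gna13 (0.994) and Trmt13 (0.986), among 463 genes with an r above 0.9.

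Sequencing depth did not separate the groups, with 32158174 to 35485021 reads assigned to genes in each library. Each of the 10 genes had between 570 and 4446 reads in every library, so that counting error was smaller than the spread between ovaries.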

How the data were processed

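Whole-ovary RNA of 7 mice was sequenced as stranded poly(A) libraries with single reads. The authors demultiplexed with bcl2fastq 2.17.1.14, aligned to mm10 with STAR 2.5.3a and deposited raw counts of unique reads per Ensembl gene made with HTSeq-count 0.6.1p1 in union mode. The Ensembl release and the strand setting of the counting are not given in the sources used here. The 5 summary lines of each file (45.8 to 47.5% of counted alignments, mostly reads that mapped to several places) were left out. Symbols and coordinates came from GENCODE M21, which matched 55394 of 55487 identifiers.

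Counts were scaled by TMM, filtered with filterByExpr (minimum count 10) and tested with edgeR 4.0.16 (R 4.3.3, quasi-likelihood F test, Benjamini-Hochberg over all 18779 genes), with 2 surrogate variables from sva 3.50.0. That left 3 residual degrees of freedom. The procedure was tested on simulated data. The study used DESeq2 with surrogate variables; DESeq2 1.42.0 was an alternative here, as were 0, 1 and 3 surrogate variables, other scaling and filters, a replicate block and leaving out each library. Values of single genes and ratios were compared with exact permutation tests. Dams' injections are subcutaneous in the labels and intraperitoneal in the paper's methods. The members and lists were chosen with earlier results of these data known. Besides the 10 members, the text names the tested genes of highest mean CPM in each vascular list (4 pathway partners, 4 further endothelial, 2 lymphatic, 3 mural, 3 hypoxia response, 2 inhibitors) and the genes most like 3 member patterns. Any other gene, and each singled-out gene of a count, was named after its values were seen. Lists of luteal, granulosa, theca and stroma, oocyte, erythroid, platelet, leukocyte, adipocyte and oviduct epithelium markers were also summed.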

Additional observations from a re-analysis of the deposited data

How the results depend on the processing

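Pecam1 was the only member past the adjusted threshold under any alternative, without PAMH F3 replicate 1, and Tie1, Pecam1, Cdh5 and Eng kept a log2 fold change below 0 under all of them. Genes at an adjusted p of at most 0.05 numbered 0 in edgeR with 2 surrogate variables (1435 at an unadjusted p under 0.05), 101 in DESeq2 with the same variables, 6 in DESeq2 without, 8 with no filter on low counts, and 0 to 39 with 1 library left out (39 without CNTR replicate 1, 37 without PAMH F3 replicate 1). Genes at an unadjusted p under 0.05 numbered 741 without surrogate variables, 842 in DESeq2 without them and 449 to 3251 with 1 library left out. Members at an unadjusted p under 0.05 numbered 0 with 1 surrogate variable, 2 with no filter and 0 to 6 with 1 library left out. Replicate numbers did not pair the libraries (correlations of deviations 0.10, 0.10 and −0.25). With a replicate block and no surrogate variables 447 genes had an unadjusted p under 0.05, and Vegfa (−0.0153), Angpt2 (−0.0162) and Pdpn (0.0911) changed sign. Vegfa was also at −0.0085, −0.0106 and −0.0065 with 0 or 1 surrogate variable and in DESeq2 without them, and Nrp2 at 0.0201 and 0.0219 in edgeR and DESeq2 without them. With 1 library left out, with or without surrogate variables (the latter added after seeing the data), these log2 values changed sign: Vegfa (−0.0765 to 0.0967), Kdr (−0.233 to 0.108), Flt1 (−0.113 to 0.031), Tek (−0.219 to 0.0192), Angpt1 (−0.121 to 0.0733), Angpt2 (−0.0212 to 0.177), Nrp2 (−0.105 to 0.137), Cd34 (−0.269 to 0.0285), Pdpn (−0.156 to 0.175), Ccl21a (−0.373 to 0.0842), Rgs5 (−0.513 to 0.0192), Abcc9 (−0.359 to 0.0048), Epas1 (−0.213 to 0.0413), Arnt (−0.0012 to 0.152), and the ratios Flt1 to Kdr (−0.146 to 0.0749), Vegfa to Flt1 (−0.0333 to 0.0749), Vegfa to Kdr (−0.152 to 0.131), Angpt1 to Tek (−0.023 to 0.131) and Eng to Pecam1 (−0.036 to 0.334). Id3 was called without CNTR replicate 1 (−0.78, adjusted p = 0.0349, edgeR) and Thbs1 with no filter on low counts (adjusted p = 0.0234, edgeR) and in DESeq2 with surrogate variables. The cause was not tested. The number of libraries limits the precision, as the width of the printed intervals shows.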
